A study of Homo sapiens with 75 samples.

Results

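Interferon-stimulated genes are described here across 5 human cell lines, before and after ionising radiation. The members were a list of 33 named genes, and each was read from 1 probe set, the brightest on average over the 75 arrays among those that name the gene alone. Values were found for 32 of the 33, out of 19775 genes measured in this way, and STAT2 was not analysed here. The 32 comprised 3 measured transcription factors and sensors (IRF7, IRF9, IFIH1), 4 genes of ISG15 conjugation and its removal (ISG15, USP18, HERC5, HERC6), 4 IFIT genes, 4 OAS genes, 7 other antiviral effectors (MX1, MX2, RSAD2, BST2, IFITM1, TRIM22, SAMD9L), the pair PARP9 and DTX3L, 7 further induced genes (IFI6, IFI27, IFI35, IFI44, IFI44L, XAF1, EPSTI1) and the chemokine gene CXCL10.

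Interferons are secreted proteins that cells release after sensing viral or displaced nucleic acid. Their receptors signal through JAK kinases to STAT proteins, which together with IRF9 bind the interferon-stimulated response element (ISRE) in promoters and raise genes that block viral entry, translation and replication. Cells also keep part of this set on without added interferon, and DNA damage is one of the stimuli through which nucleic acid can reach the sensors.

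The lines carried the labels G361 (melanoma), HepG2 (hepatoma), TK6 (B lymphoblastoid cells), U2OS (osteosarcoma) and BJ (skin fibroblasts), and the labels give 1 serum-supplemented medium for them. Each line gave 5 groups of 3 arrays, which were untreated cells at 0, 3 and 6 h and cells at 3 and 6 h after 5 Gy of ionising radiation (IR). Untreated cells went through the same handling without the exposure. The comparisons asked how far the members differ between unexposed lines, how they respond to radiation relative to time-matched controls, and how they drift in untreated cells over the same hours. No label says that the 3 arrays of a group came from separate cultures, so the p-values speak to the scatter among these arrays alone, and the scatter may be technical. With 3 arrays a group the precision is limited.

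All values are log2 levels as deposited, and a difference of 1 is a doubling. A line's level limit was the 40th percentile of all its probe sets, between 3.47 and 3.52. Only genes whose mean over the line's 15 arrays lay above it were tested there. A gene was called at a Benjamini-Hochberg adjusted p under 0.05 in limma. A member that rose or fell is one called in that direction. The cells were measured in bulk, so fewer cells of a type and less RNA per cell cannot be told apart.

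The labels were checked first. The highest line was G361 for all 7 measured melanocyte markers, TK6 for all 10 B lymphoid markers and BJ for all 12 fibroblast markers, whereas 2 of 7 osteoblast markers were highest in U2OS, 2 in the arrays labelled HepG2 and 2 in BJ. Of 10 hepatocyte markers, 1 was highest in the arrays labelled HepG2, namely AFP (alpha-fetoprotein), and 4 were highest in U2OS and 4 in TK6. Albumin (ALB) stood at 2.77 in the arrays labelled HepG2, below the level limit. The name HepG2 is therefore used throughout, basal levels included, only as the label of these arrays and not as a cell type shown by markers. The mean of 17 p53 target genes, which radiation is known to raise, lay 1.28 to 1.61 above the 0 h mean in irradiated TK6, 0.74 to 1.67 in U2OS and 0.62 to 0.78 in BJ. In the arrays labelled HepG2 it lay 0.92 to 1.0 above in untreated 6 h arrays and 1.07 to 1.17 in irradiated 6 h arrays, but 0.01 to 0.20 in irradiated 3 h arrays. In G361 it was 0.92, 0.95 and 0.05 in untreated 6 h arrays, 0.84 in untreated 3 h replicate 3, -0.02 to 0.26 in irradiated 3 h arrays and 0.51 to 0.89 in irradiated 6 h arrays. Irradiated and untreated groups of these 2 lines are therefore named only as labelled, and the tests of differences between lines in radiation response and drift are also given for TK6, U2OS and BJ alone. Markers of plasmacytoid dendritic cells and macrophages, which are strong interferon producers, had mean levels of 3.51 to 3.96 over 6 genes, with 3 or 4 of the 6 above the level limit in each line.

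A promoter feature known for interferon-stimulated genes, the ISRE core, is shown first. Not every member searched held it. RefSeq promoters of build GRCh38.p14 were matched for 25 of the 32 genes, and the 250 bases before the start site were searched on both strands for the ISRE core, written GAAANNGAAA on one strand and TTTCNNTTTC on the other. Of the 25, 15 (60%) held at least 1 match, against 839 of 27305 promoters (3.07%), and 9 (36%) held at least 2 separate stretches, against 36 (0.132%). Overlapping matches were merged into 1 stretch. The stretches of 4 members are printed 5′ to 3′ on the gene's strand with up to 25 flanking bases, and capitals mark the matches. They are IFIT1 and CXCL10, whose levels changed in TK6, IFIH1, which did so too, and ISG15, the member that names the pathway.

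IFIT1: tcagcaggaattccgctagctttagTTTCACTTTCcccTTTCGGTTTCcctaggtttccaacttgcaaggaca
IFIH1: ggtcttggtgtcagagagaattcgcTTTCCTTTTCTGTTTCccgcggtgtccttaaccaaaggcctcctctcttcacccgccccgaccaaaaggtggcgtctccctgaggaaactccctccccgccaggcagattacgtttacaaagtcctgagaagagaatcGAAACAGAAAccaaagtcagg
CXCL10: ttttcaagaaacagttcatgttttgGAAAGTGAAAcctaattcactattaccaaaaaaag
ISG15: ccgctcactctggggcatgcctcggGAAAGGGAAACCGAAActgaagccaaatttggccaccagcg

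These stretches lie at chr10:89392482-89392554 on the plus strand for IFIT1, chr2:162318685-162318868 on the minus strand for IFIH1, chr4:76023684-76023743 on the minus strand for CXCL10 and chr1:1013359-1013424 on the plus strand for ISG15. IFIT1 held 2 matches 3 bases apart, and ISG15 held 2 that overlap in 1 run. IFIH1 held 3 matches in 2 stretches, one of them ending 11 bases before the start site, and CXCL10 held 1 match, 211 bases before it. A match describes these letters alone and shows no binding.

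In unexposed cells at 0 h the mean level of the members was highest in BJ and TK6. By the 0 h means, 29 of the 32 lay above the level limit in BJ, 27 in TK6, 26 in HepG2, 25 in U2OS and 23 in G361. By the means over all 15 arrays, which decided the genes tested, the shares were 90.6%, 84.4%, 81.2%, 75% and 75% in that order, beside 73.2%, 71.9%, 72.7%, 74.1% and 73.3% of all genes, so G361 and U2OS lay near the background. BJ had the highest mean of the 5 lines for 14 of the 32 members and TK6 for 10, followed by HepG2 with 4, G361 with 3 and U2OS with 1. Over all genes the shares in that order were 19.0%, 26.0%, 13.4%, 19.0% and 22.5%, so TK6 and HepG2 lay near the background by this count. The mean over the 32 genes was 6.33 ± 0.18 (SD, n = 3) in BJ, 6.02 ± 0.13 in TK6, 5.06 ± 0.16 in HepG2, 4.97 ± 0.16 in G361 and 4.81 ± 0.12 in U2OS. Between pairs of lines, limma called 13 to 25 of the 31 members tested, beside the share of all 16027 genes called. Against G361 it called 16 members for HepG2 (background 41.8%), 25 for TK6 (47.8%), 20 for U2OS (46.8%) and 24 for BJ (49.6%). Against HepG2 it called 21 for TK6 (45.5%), 13 for U2OS (44.5%) and 21 for BJ (49.2%). It called 23 between TK6 and U2OS (52.7%), 21 between TK6 and BJ (56.2%) and 23 between U2OS and BJ (53.4%). The median size of a pairwise difference was 0.56 to 1.76 among members and 0.35 to 0.55 among all genes.

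The 8 members with the widest range of line means separated the lines in different ways. IFITM1, a membrane protein that blocks virus entry, read 11.06, 10.70 and 10.75 in TK6 and 10.71, 10.84 and 10.76 in BJ. All 9 arrays of the other lines read between 3.26 and 4.26. TK6 and BJ did not differ beyond their spread (adjusted p = 0.847), and both lay far above U2OS, the next line (adjusted p = 1.35e-16 against BJ). IFITM1 has near-identical family members whose transcripts its probe set may share, so its level is uncertain to that extent.

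BST2 (tetherin, which holds budding virus at the cell surface) was high in TK6 alone, at 10.66, 10.12 and 10.48. The other 12 arrays lay between 3.63 and 5.35, with U2OS next in order (mean 5.07, adjusted p = 2.04e-14). MX2, a GTPase that restricts retroviruses, was also highest in TK6 (8.21, 7.93 and 7.75), followed by G361 (6.70, 6.35 and 5.70, adjusted p = 5.66e-06) and BJ (4.79, 5.62 and 4.62). HepG2 and U2OS, at 4.05 and 3.61, did not differ beyond their spread (adjusted p = 0.192).

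TRIM22, an E3 ubiquitin ligase that is induced by interferon and is also a known p53 target, ordered the lines one by one. Its means were 9.72 in TK6, 9.09 in BJ, 7.66 in HepG2, 6.11 in U2OS and 3.18 in G361, and each neighbouring pair differed (adjusted p = 0.0363, 4.45e-05, 2.0e-05 and 1.10e-09 down the order). The G361 arrays read 3.06, 3.29 and 3.18, below the level limit at that time, and the 3 TK6 arrays lay between 9.69 and 9.74.

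The IFIT proteins bind foreign RNA and block its translation, and 2 of them split the lines differently. IFIT3 was highest in TK6 (9.91, 10.25 and 10.37) and BJ (8.48, 9.41 and 9.07, adjusted p = 0.0134 between these lines), then HepG2 and G361 at 7.26 and 6.93 (adjusted p = 0.574). It was lowest in U2OS, where replicate 1 read 6.10 and the other arrays 3.98 and 4.06. IFIT1 was highest in BJ (8.38, 8.49 and 8.57) and second in U2OS (7.03, 6.15 and 5.77), with HepG2 at 4.75, TK6 at 4.31 and G361 at 3.72. TK6 and HepG2 did not differ beyond their spread for IFIT1 (adjusted p = 0.189), so TK6 had the highest IFIT3 but lay below BJ and U2OS for IFIT1. IFIT2 and IFIT5 were highest in BJ, at 7.13 and 8.27.

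XAF1, an antagonist of the caspase inhibitor XIAP, read 7.87, 6.94 and 6.81 in BJ and 4.75, 4.32 and 4.15 in TK6, and was below the level limit in the other lines (2.48 to 2.78). IFI35, an interferon-induced leucine zipper protein, read 7.69 in G361, 7.35 in HepG2, 7.04 in BJ and 6.25 in TK6. It stood at 3.53 in U2OS (3.16, 3.67 and 3.75), far below TK6 (adjusted p = 4.03e-11), and its mean over the 15 U2OS arrays was below the limit. Above the limit in 1 line each were 3 members, namely HERC5, the main ligase that attaches ISG15 to proteins, in G361 (7.51, 6.23 and 5.75), CXCL10, which draws T cells through the receptor CXCR3, in TK6 (7.13, 6.36 and 6.37), and IFI44L in BJ (3.86, 4.91 and 4.0). They were named after their values were seen.

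The remaining members varied less. ISG15, a ubiquitin-like modifier, was above the limit in all lines, from 6.65 in G361 to 10.13 in BJ, and U2OS, TK6 and HepG2 lay between 8.20 and 8.44, where neighbours in the order did not differ beyond their spread (adjusted p = 0.998 and 0.369). IRF9, the DNA-binding partner of the STATs, was highest in BJ (8.94) and TK6 (8.52, adjusted p = 0.106) and lowest in HepG2 (5.42). OAS1, which makes the activator of RNase L, was highest in TK6 at 7.10 and lowest in BJ at 4.18, and IFIH1 (the RNA sensor MDA5) was highest in TK6 at 7.19 with the other lines at 5.02 to 5.61. IFI27 and OASL differed by at most 0.36 and 0.31 between lines. RSAD2 (viperin, which makes a chain-terminating nucleotide) was the 1 member below the limit in every line, at 2.59 to 2.91.

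Few members were called after irradiation, and all of these calls were in TK6. In TK6, 2 of 27 members were called at 3 h, where 3.99% of all 14227 genes were, and 2 of 27 at 6 h, where 6.23% were. At 3 h 1 rose and 1 fell (background 1.88% higher and 2.11% lower), and at 6 h 2 rose and 0 fell (4.01% and 2.23%). TRIM22 rose at both times, IFIT1 fell at 3 h and IFIH1 rose at 6 h. The median difference was -0.03 at 3 h and 0.17 at 6 h among members, and 0.01 at both times among all genes. At 3 h 13 of the 27 lay above their control and 14 below, and at 6 h 17 lay above and 10 below. At an unadjusted p under 0.05 there were 6 members at each time. Both comparisons use their own untreated arrays, and the difference between them called 0 of 27 members by limma (background 0.295%, 5 members at an unadjusted p under 0.05).

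**Figure D1:**
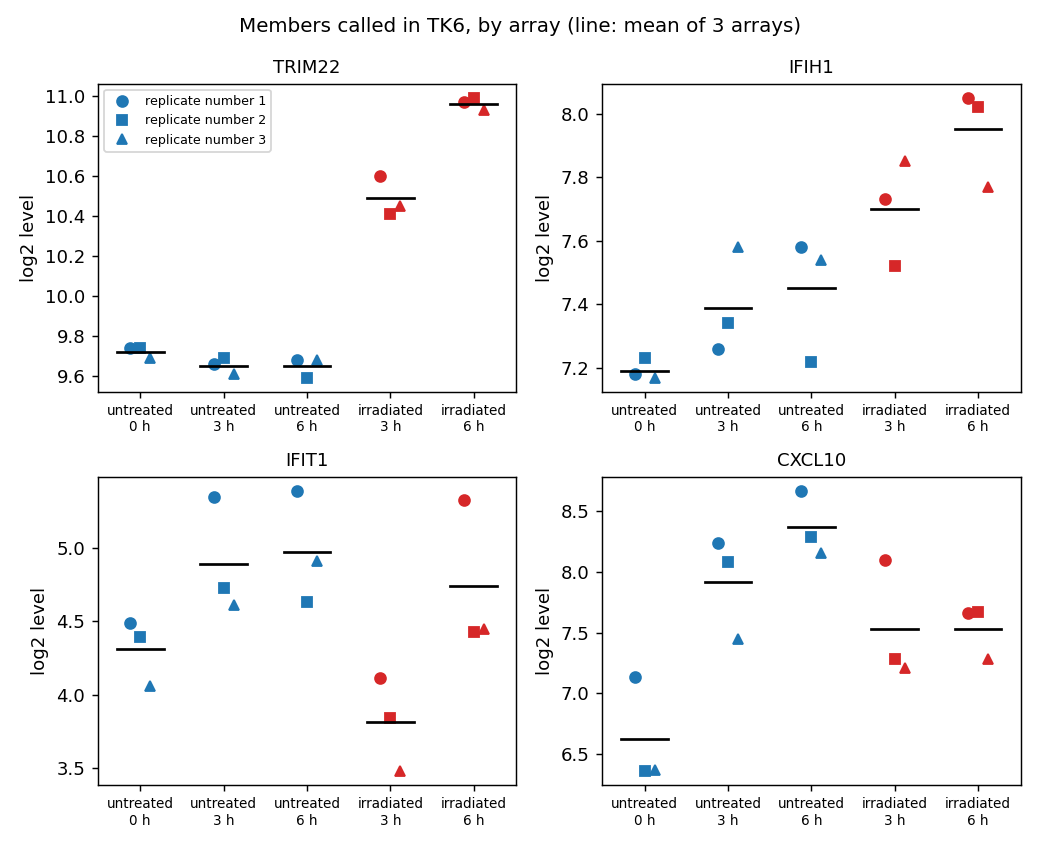
Levels in log2 (vertical axes, separate for each gene) of the 4 members called in TK6 in the 5 groups along the horizontal axis, untreated in blue and irradiated in red; each symbol is 1 array, its shape gives the replicate number and the bar is the mean of 3 arrays. TRIM22 was at 9.59 to 9.74 in all 9 untreated arrays and at 10.93 to 10.99 at 6 h after 5 Gy, while CXCL10 was lowest in untreated cells at 0 h.

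TRIM22 read 10.60, 10.41 and 10.45 in TK6 at 3 h after irradiation and 9.66, 9.69 and 9.61 in the untreated arrays of that time. At 6 h it read 10.97, 10.99 and 10.93 against 9.68, 9.59 and 9.68. Irradiated and untreated arrays were fully separated, and replicates lay close together. The rise was 0.84 (SE 0.07, 1.79-fold, adjusted p = 5.82e-07) at 3 h and 1.31 (SE 0.07, 2.49-fold, adjusted p = 1.06e-08) at 6 h. The 6 h effect exceeded the 3 h effect by 0.48 (SE 0.10), which limma did not call (adjusted p = 0.0651) but did with the replicate number as a block (adjusted p = 0.00728, background 1.03%), after quantile normalization (adjusted p = 0.0463) and with the probe sets of each gene averaged (adjusted p = 0.0478).

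IFIT1 read 4.11, 3.84 and 3.48 in irradiated TK6 at 3 h and 5.35, 4.73 and 4.61 in untreated cells. All irradiated arrays lay below all untreated ones, and the 0 h arrays read 4.49, 4.39 and 4.06, with a mean between both. The fall was 1.09 (SE 0.27, 2.13-fold, adjusted p = 0.0231). Part of the distance came from the control, since against 0 h the difference was -0.51 and was not called. At 6 h IFIT1 read 5.33, 4.43 and 4.45 against 5.39, 4.63 and 4.91 in untreated cells, which overlap. The call at 3 h was lost without irradiated replicate 2 (-1.10), irradiated replicate 3 (-0.92) or untreated replicate 1 (-0.86). It was also lost when all arrays numbered 2, or all numbered 3, were left out.

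IFIH1 read 8.05, 8.02 and 7.77 in irradiated TK6 at 6 h and 7.58, 7.22 and 7.54 in untreated cells. The groups did not overlap, and the rise was 0.50 (SE 0.13, 1.42-fold, adjusted p = 0.0301). At 3 h the difference was 0.31 and was not called (adjusted p = 0.311). The 6 h call was lost when any of untreated replicates 2 and 3 or irradiated replicates 1 and 2 was left out (0.39 to 0.55) and when the 3 probe sets of the gene were averaged (0.34). Leaving out all arrays numbered 1, all numbered 2 or all numbered 3 also lost it.

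CXCL10 was not called after irradiation but lay lower than its control. It read 7.66, 7.67 and 7.28 in irradiated TK6 at 6 h and 8.67, 8.29 and 8.16 in untreated cells, a difference of -0.84 (SE 0.25, adjusted p = 0.0581, and 0.0357 after quantile normalization). The groups were separated. In the irradiated arrays it stood above 0 h, by 0.91 at both times (adjusted p = 0.0259 and 0.0213). With 0 h as the control, 3 members were called in TK6 at 3 h (TRIM22, IFIH1 and CXCL10, background 10.5%) and 7 at 6 h (those 3 with IFIT2, IFIT3, IFI35 and SAMD9L, background 14.2%), all higher.

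Replicate numbers paired the TK6 arrays in both irradiation comparisons, and with the number as a block limma called 4 members at 3 h (background 8.46%) and 5 at 6 h (13.1%). At 3 h OAS1 (-0.56, adjusted p = 0.0233) and SAMD9L (-0.77, adjusted p = 0.0359), an antiviral translation inhibitor, were added on the lower side. At 6 h CXCL10 (-0.84, adjusted p = 5.15e-04) and IFITM1 (-0.24, adjusted p = 0.0277) were added as lower and IRF9 (0.79, adjusted p = 0.00321) as higher. Without the block the adjusted p of IRF9 was 0.105, with 8.91, 8.54 and 8.68 in irradiated arrays against 8.31, 7.49 and 7.97. Part of that distance lay in the control, which had drifted by -0.60 from its 0 h mean of 8.52.

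By role, the 4 IFIT genes all lay below control in TK6 at 3 h (-1.09 to -0.03, 1 called), and at 6 h 2 lay above and 2 below (-0.24 to 0.45, 0 called). Of the 4 OAS genes 3 lay above control at both times, with 0 called. IRF7, IRF9 and IFIH1 lay above control at both times, by 0.23 to 0.47 at 3 h and 0.26 to 0.79 at 6 h, with 1 called at 6 h. ISG15 and its protease USP18 lay above control by 0.13 to 0.26, with 0 called. PARP9 and DTX3L, which act together as a mono-ADP-ribosyl and ubiquitin transferase, lay at -0.34 and -0.20 at 3 h and 0.26 and -0.08 at 6 h, with 0 called. The counts of signs in these groups were the same after quantile normalization. They rest on the 1 probe set kept for each gene, and other probe sets of OAS2, OAS3, OASL, IFIT3 and PARP9 did not all share that sign. Groups did not overlap for 4 of the 27 members at 3 h and 8 at 6 h, where 17.4% and 23.6% of all genes did not.

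**Figure D2:**
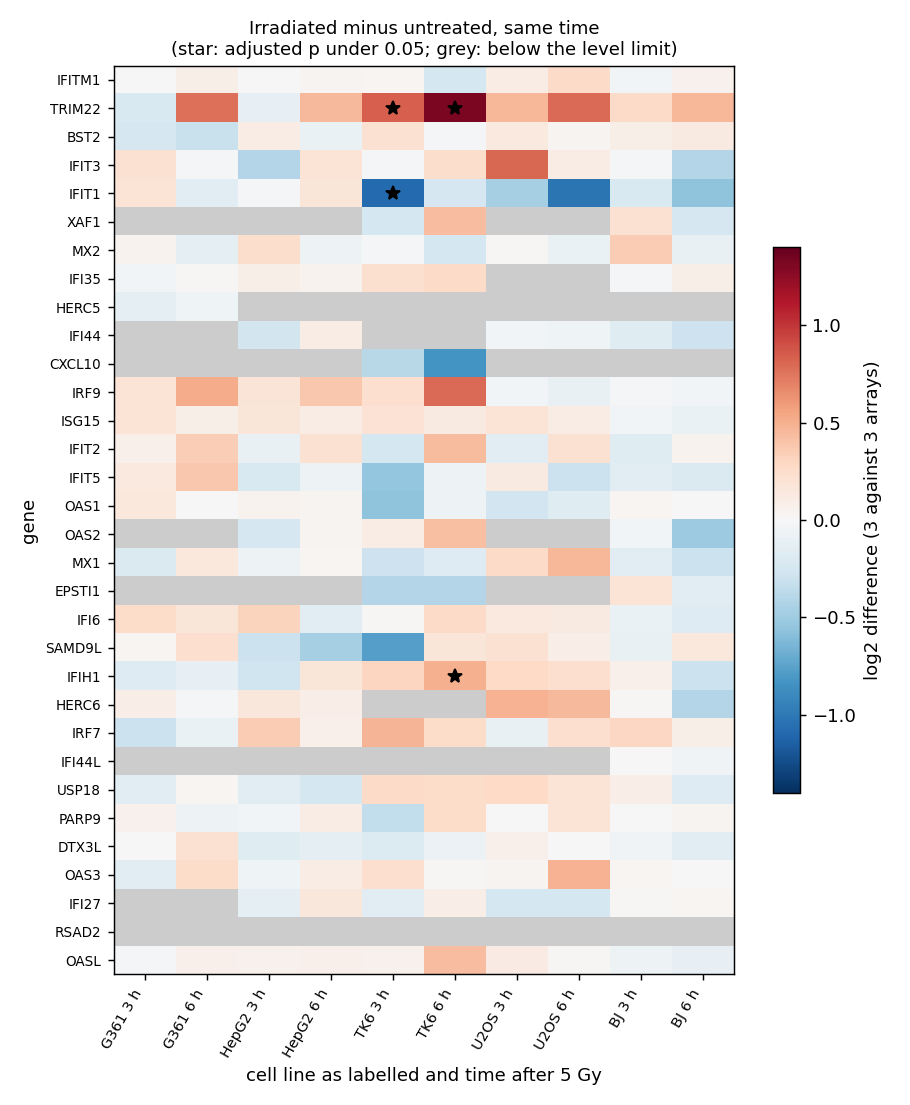
Irradiated minus untreated level at the same time (colour, log2, 3 arrays against 3) for each member (rows, ordered as by range of basal levels) in the 5 lines at 3 h and 6 h; stars mark an adjusted p under 0.05 and grey marks genes below the level limit. The 4 stars are all in TK6, on TRIM22 at 3 h (0.84) and 6 h (1.31), IFIT1 at 3 h (-1.09) and IFIH1 at 6 h (0.50).

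In the other 4 lines limma called 0 members at either time. The background there was low, at 0% of all genes in G361 at both times, 0% and 0.00696% in HepG2, 0.0887% and 0.641% in U2OS, and 0.18% and 0.235% in BJ, at 3 h and 6 h. At an unadjusted p under 0.05 the members numbered 0 and 2 of 24 in G361, 0 and 1 of 26 in HepG2, 0 and 2 of 24 in U2OS, and 1 and 2 of 29 in BJ. Member medians ranged from -0.11 in BJ at 6 h to 0.11 in U2OS at 3 h, and at the latter the median of all genes was itself 0.10. After quantile normalization the U2OS median at 3 h was 0.02, with 13 members above control and 11 below in place of 16 and 8.

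The 2 widest differences of each such comparison were these. In BJ at 6 h IFIT1 read 8.40, 8.13 and 7.66 against 9.0, 8.55 and 8.32 (-0.56, adjusted p = 0.415). OAS2 read 3.96, 3.98 and 4.45 against 5.29, 4.29 and 4.32 (-0.50, adjusted p = 0.889). Both sets of arrays overlapped. In BJ at 3 h MX2 and IRF7, the factor that amplifies interferon transcription, differed by 0.35 and 0.29 (adjusted p = 0.9999 for both).

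In U2OS at 6 h IFIT1 read 5.78, 6.01 and 6.25 against 6.92, 7.0 and 7.19, so the groups were separated. The difference was -1.02 (SE 0.30, adjusted p = 0.288) and was called with the replicate block (adjusted p = 0.0497, background 1.07%) and when the 6 arrays were fitted alone (adjusted p = 0.0377). Part of the distance lay in the control, whose mean stood 0.72 above that of 0 h (6.32), a drift that was not called. The irradiated arrays overlapped those of 0 h. TRIM22 was the other of the widest in U2OS at 6 h (0.79). In U2OS at 3 h IFIT3 read 5.81, 4.39 and 5.38 against 4.12, 4.08 and 4.95 (0.81), and HERC6, a relative of HERC5, read 5.40, 4.52 and 4.68 against 4.58, 4.25 and 4.33 (0.48). Both overlapped and had an adjusted p of 0.909.

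In the arrays labelled HepG2, IFIT3 at 3 h read 7.0, 7.17 and 6.90 against 7.17, 7.58 and 7.56 (-0.41, adjusted p = 0.871), and IRF7 read 3.68, 3.61 and 3.99 against 3.42, 3.19 and 3.61 (0.35, adjusted p = 0.871). At 6 h SAMD9L read 4.75, 4.34 and 4.31 against 4.97, 4.99 and 4.83 (-0.47, adjusted p = 0.472), the lower values all lying in the irradiated arrays. TRIM22 differed by 0.46. Without the arrays numbered 1, IFIT3 (-0.53) and IFI6 (0.67) were called at 3 h and TRIM22 (0.39) at 6 h. In G361 the widest were IRF7 (-0.30) and IFI6 (0.25) at 3 h and TRIM22 (0.77) and IRF9 (0.51) at 6 h, each with an adjusted p of 0.9999. IRF9 read 6.10, 5.98 and 5.82 against 5.45, 5.57 and 5.33, without overlap.

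TRIM22 was among the widest differences at 6 h in 4 of the 5 lines, with the groups of G361 and HepG2 taken only as labelled. Its values are therefore given in full, although it was singled out by the calls in TK6. In BJ at 6 h it read 9.49, 9.63 and 9.56 against 9.14, 9.23 and 8.92. The groups were separated by a small step of 0.46 (SE 0.10, adjusted p = 0.083), which was called with the replicate block (adjusted p = 0.0107, background 0.518%), although the numbers did not pair the arrays of that comparison, and after quantile normalization (adjusted p = 0.0306). At 3 h in BJ it read 9.33, 9.36 and 9.24 against 9.13, 9.08 and 8.93, also separated (0.26, adjusted p = 0.9999). Against 0 h, 2 members were called in BJ at 6 h (background 2.08%), TRIM22 as higher (0.47) and XAF1 as lower (-0.98).

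In U2OS TRIM22 read 7.75, 7.04 and 6.83 against 6.46, 6.33 and 6.45 at 6 h (0.79, SE 0.27, adjusted p = 0.494) and 6.79, 5.98 and 6.20 against 5.67, 5.77 and 6.15 at 3 h (0.46). The 6 h groups were separated and the 3 h groups overlapped. In G361 it read 4.46, 4.91 and 3.78 against 3.57, 3.76 and 3.50 at 6 h (0.77), again separated, and differed by -0.21 at 3 h. In the arrays labelled HepG2 it read 8.37, 8.69 and 8.67 against 7.79, 8.37 and 8.21 at 6 h (0.46) and differed by -0.12 at 3 h. Its 6 h groups met at 8.37 without crossing, and its 3 h groups overlapped.

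**Figure D3:**
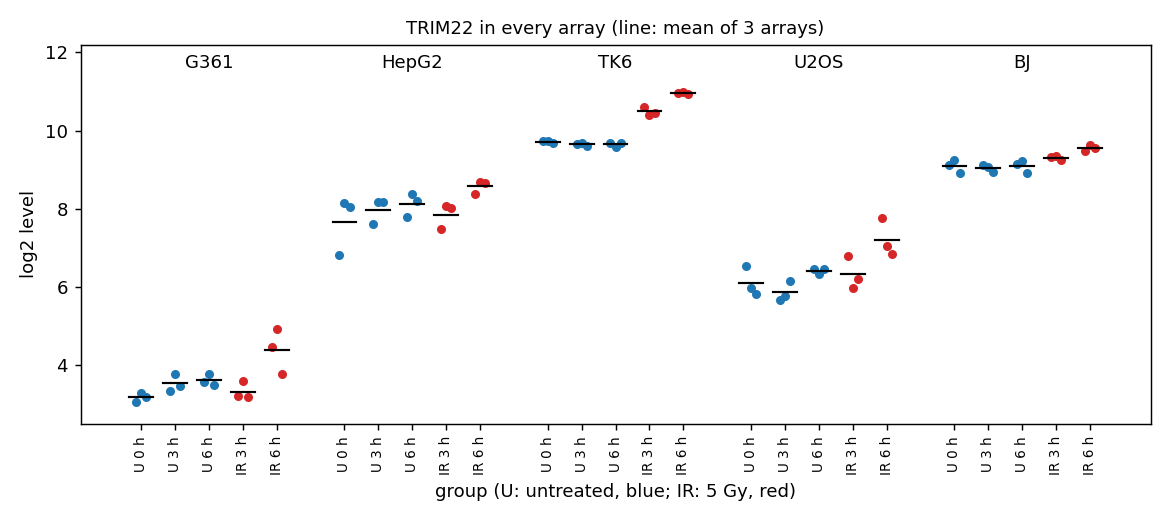
TRIM22 level in log2 (vertical axis) in each of the 75 arrays, by line and group along the horizontal axis, untreated (U) in blue and irradiated (IR) in red, with bars for the mean of 3 arrays. Arrays labelled irradiated at 6 h had a higher mean than those labelled untreated in all 5 lines, by 0.46 (HepG2 and BJ) to 1.31 (TK6). Of these only the TK6 rise was called. The p53 target mean in untreated 6 h arrays lay above 0 h by 0.92, 0.95 and 0.05 in G361 and 0.92 to 1.0 in HepG2. The groups of these 2 lines are therefore named only as labelled.

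Whether the effect differed between lines was tested in 1 fit of all 75 arrays. Of 31 members, 0 were called by limma's moderated F at 3 h or 6 h, where 1.34% and 1.83% of 16027 genes were, and 3 and 2 had an unadjusted p under 0.05. For TRIM22 the adjusted p was 0.321 at 3 h and 0.766 at 6 h, and for IFIT1 0.541 and 0.688. Among TK6, U2OS and BJ alone, 0 of 30 members were called at either time (0.604% and 1.26% of all genes), with 1 and 3 at an unadjusted p under 0.05. There the adjusted p of TRIM22 was 0.814 and 0.175. In neither fit were the calls made in TK6 shown to differ from the other lines. For CXCL10 at 6 h the adjusted p was 0.0797, and 0.0413 after quantile normalization of all arrays. CXCL10 entered this test through TK6 alone and lay below the level limit in the other lines. No difference in radiation response is therefore read from it.

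Without irradiation CXCL10 rose in TK6 over the course of the experiment. It read 7.13, 6.36 and 6.37 at 0 h, 8.24, 8.08 and 7.45 at 3 h and 8.67, 8.29 and 8.16 at 6 h. Every later array lay above every 0 h array. The rise was 1.30 (SE 0.25, 2.46-fold, adjusted p = 0.0133) at 3 h and 1.75 (SE 0.25, 3.37-fold, adjusted p = 6.71e-04) at 6 h, and both share the 0 h arrays. It was the 1 of 27 members called at each time, where 1.81% and 5.16% of all genes were called. At 3 h the call was lost without untreated 0 h replicate 2 or 3 (1.17 for each) or untreated 3 h replicate 2 (1.22). It was also lost at 3 h in the fit of the 6 compared arrays alone. Leaving out all arrays numbered 2, or all numbered 3, lost the call at both times.

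The drift comparisons share their untreated arrays with the irradiation comparisons, so the 2 kinds of difference are not independent. In irradiated TK6 CXCL10 read 8.10, 7.28 and 7.21 at 3 h and 7.66, 7.67 and 7.28 at 6 h. The means lay above that of 0 h and, at 6 h, all irradiated arrays lay below all untreated arrays of the same time. In the other lines CXCL10 was below the level limit and drifted by -0.41 to 0.03. The drift of CXCL10 differed between the 5 lines by the moderated F (adjusted p = 0.00118 at 3 h and 2.60e-07 at 6 h) and between TK6, U2OS and BJ alone (adjusted p = 0.00734 and 7.28e-05). CXCL10 entered these tests through TK6 alone, and the values of the other lines are below the level limit, so no difference in response is read from them. Of the other members, 0 were called (background 0.749% and 1.18%), and after quantile normalization SAMD9L was called at 6 h (adjusted p = 0.0449).

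Other members drifted in TK6 without being called. IFIT2 went from 5.92 at 0 h to 6.49 and 6.62, IFI35 from 6.25 to 6.62 and 6.95 and SAMD9L from 6.24 to 6.40 and 6.96. At 6 h the number paired the arrays, and with it as a block 10 members were called (background 12.9%), 9 higher and 1, IRF9, lower. The 9 were CXCL10, IFI35, BST2, IFIT2, IFIT1, IFIT5, ISG15, SAMD9L and OAS1, with rises of 0.30 (ISG15) to 1.75 (CXCL10). At 3 h 6 were called with the block (background 6.99%), where numbers did not pair the arrays. In G361, HepG2, U2OS and BJ limma called 0 members for drift, with 0 to 2 at an unadjusted p under 0.05 per comparison. The background at 3 h and 6 h was 0% and 0% in G361, 0% and 0.64% in HepG2, 0% and 0% in U2OS, and 0.0138% and 0.00691% in BJ. The widest drift there was XAF1 in BJ, which read 7.87, 6.94 and 6.81 at 0 h and 6.54, 6.27 and 6.58 at 6 h (-0.74). It was named after its values were seen.

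The arrays of TK6 numbered 1 stood above the others in the members, and this was examined after seeing the data. With the group means removed, 19 of 27 members were called higher in the 5 arrays numbered 1 than in the 10 numbered 2 and 3, and 0 lower, where 17.4% of all genes were called higher and 22.9% in either direction. The median difference was 0.41 among members and 0.03 among all genes. In all 5 groups the array numbered 1 was highest for 14 of the 27 members, against 12.3% of all genes. ISG15 read 8.61, 8.11 and 8.58 at 0 h, 9.08, 8.51 and 8.62 in untreated cells at 6 h and 9.28, 8.47 and 8.86 at 6 h after irradiation. The difference was 0.65 for IFI35 (SE 0.07), 0.61 for IRF7 (SE 0.12), 0.50 for BST2 (SE 0.05) and 0.45 for ISG15 (SE 0.06). TRIM22 (0.05), IFIH1 (0.04), IFIT3 (-0.03) and MX1 (0.03) were not among those called.

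**Figure D4:**
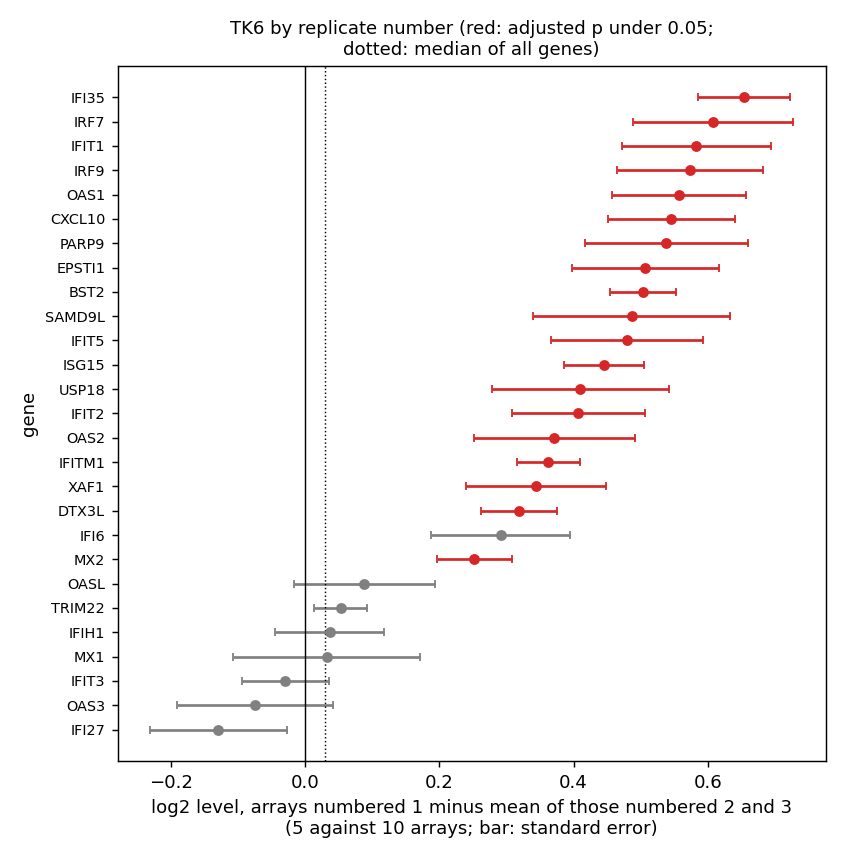
Level in TK6 arrays numbered 1 minus the mean of those numbered 2 and 3 (horizontal axis, log2, 5 against 10 arrays with group means removed) for the 27 members tested (rows); points are estimates, bars are standard errors, red marks an adjusted p under 0.05 and the dotted line is the median of all genes at 0.03. All 19 red points lie above 0, from 0.25 (MX2) to 0.65 (IFI35).

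The same comparison in the other lines gave smaller counts, with no test of the difference from TK6. In G361 8 of 24 were called (background 37.1%), in U2OS 6 of 24 (25.9%), in HepG2 4 of 26 (17.1%) and in BJ 0 of 29 (8.08%). Higher in arrays numbered 1 were 7 in G361 (25.2% of all genes), 5 in U2OS (9.88%), 1 in HepG2 (6.12%) and 0 in BJ (3.53%). Arrays numbered 1 were highest in all 5 groups for 3 members in G361 (16.5%), 4 in U2OS (4.32%), 1 in HepG2 (3.06%) and 0 in BJ (2.94%). Medians among members and all genes were 0.19 and 0.04 in G361 and 0.19 and -0.04 in U2OS. They were 0.02 and -0.04 in HepG2 and 0.05 and -0.01 in BJ. The G361 arrays numbered 1 also had a GAPDH 5' minus 3' difference, an RNA quality sign, of -0.94 to -0.68. In TK6 that difference was 0.00 to 0.10 in all 15 arrays. The part of culture, handling or batch in the TK6 pattern was not tested. Without the arrays numbered 1, TRIM22 (0.79) and IFIT1 (-1.01) were called in TK6 at 3 h and TRIM22 (1.33), CXCL10 (-0.75) and IRF9 (0.88) at 6 h. Without those numbered 2, TRIM22 alone was called, at 3 h (0.90) and 6 h (1.27). Without those numbered 3, TRIM22 was again the only member called (0.83 and 1.34).

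The upstream parts of the pathway were read from lists of ligands, receptors, signalling proteins and sensors. Of 8 measured interferon genes, IFNG in TK6 was the 1 above the level limit in any line, at 4.38 at 0 h, and IFNB1 stood at 2.76 to 2.95 in all lines. IFNG, the type II interferon, rose in irradiated TK6 by 1.32 at 3 h (5.65 against 4.33, SE 0.31, adjusted p = 0.018) and by 1.32 at 6 h (5.42 against 4.10, SE 0.31, adjusted p = 0.0136). All 6 receptor genes were above the limit in all lines. Among them IFNGR1, a chain of the type II receptor, fell by 0.47 in TK6 at 3 h (adjusted p = 0.0142). In untreated TK6 1 receptor gene was called higher at 6 h than at 0 h (all genes in either direction, 5.16%). With the replicate block limma called IFNAR1 higher in that comparison (0.86, adjusted p = 0.00238, all genes 12.9%).

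Of 4 measured kinases and STATs, STAT3 rose in TK6, by 0.84 at 3 h (adjusted p = 3.49e-04) and 1.18 at 6 h (adjusted p = 8.0e-06). Of 5 IRF factors, IRF1 rose at 6 h (0.57, adjusted p = 0.0227). Of 10 nucleic acid sensing genes, 2 rose at 6 h (all genes, 4.01%), namely AIM2, a DNA sensor of inflammasomes (0.83, adjusted p = 0.0099, and 1.30 above its 3 h effect, adjusted p = 0.0385), and TLR3, a receptor for double-stranded RNA (0.63, adjusted p = 0.0308). TLR3 had drifted down in untreated TK6 by 6 h (-0.80, adjusted p = 0.0108). Of 4 negative regulators, 0 were called after irradiation, and limma called 0 genes of these lists in the other 4 lines. In untreated TK6 1 negative regulator was higher at 6 h than at 0 h (all genes in either direction, 5.16%). With the replicate block limma called PTPN6 (0.55, adjusted p = 6.46e-05) and SOCS1 (0.42, adjusted p = 0.0461) higher in that comparison (all genes, 12.9%). With the replicate block, further calls in irradiated TK6 at 3 h (all genes, 8.46%) were lower IRF8 (-0.52), lower PIAS1 (-0.37) and higher TBK1 (0.35). At 6 h (all genes, 13.1%) they were higher TYK2 (0.39), STING1 (0.50) and TBK1 (0.29) and lower JAK1 (-0.26), IFNGR1 (-0.30) and PTPN6 (-0.28). With the block limma also called TLR3 in U2OS at 6 h (1.05, adjusted p = 0.00351, all genes 1.07%).

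A further list of 40 interferon-induced genes outside the members had 34 tested in TK6. At 3 h 2 rose and 1 fell (all genes, 1.88% and 2.11%), and at 6 h 3 rose and 0 fell (4.01% and 2.23%). With the replicate block 3 were higher and 2 lower at 3 h (all genes in either direction, 8.46%), and 4 higher and 1 lower at 6 h (13.1%). For drift at 6 h 8 were higher and 1 lower with the block (12.9%). TAP1, a peptide transporter of antigen presentation, rose at both times (0.71, adjusted p = 7.94e-04, and 0.51, adjusted p = 0.0126). SLC15A3, a lysosomal peptide transporter, rose at 3 h (0.66) and SP100, a nuclear body protein, fell (-0.64). ZNFX1, an RNA helicase, and IFI16, a nuclear DNA sensor, rose at 6 h (0.58 and 0.52). TAP1 also rose in untreated TK6 by 6 h (0.52, adjusted p = 0.0156), together with PLSCR1 (0.53) and PML (0.74). The median of the list was 0.05 at 3 h and 0.12 at 6 h after irradiation, beside 0.01 for all genes at both times.

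Where members had several probe sets, these did not all move alike in TK6. The 3 probe sets of SAMD9L differed at 3 h by -0.77, -0.81 and -0.27, and those of OAS1 by -0.56 and -0.43. The probe sets of IFIH1 differed at 6 h by 0.50, 0.59 and -0.07, and those of IFIT3 by 0.25 and 0.61. At 3 h the kept probe sets of OAS2, OAS3 and OASL differed by 0.10, 0.24 and 0.07. Their others differed by -0.05 and -0.62 (OAS2), -0.03 (OAS3) and -0.12 (OASL). For IFIT3 at 3 h the kept probe set differed by -0.03 and the other by 0.13. At 6 h those of OAS3 differed by 0.01 and -0.23, and those of PARP9 by 0.26 and -0.21. Signs were the same for IFIT2 and IFIT5 at 3 h and for OAS2 and OASL at 6 h. With the probe sets of each gene averaged, IFIT3 was called at 6 h (0.43, adjusted p = 0.0337) and IFIH1 was not. TRIM22, IFIT1 and CXCL10 had 1 probe set each.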

How the data were processed

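RNA of 75 samples was hybridised to Affymetrix arrays of 54675 probe sets. The deposited values are on a log2 scale and were made with RMA, per the submitters' processing notes. No version is given in the sources used here. They were used as deposited. Probe sets naming 1 gene numbered 41097, those naming several 1801 and unnamed ones 11777. The members and lists were chosen with earlier results of these data known.

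For each gene the probe set with the highest mean was kept. Each line was fitted with limma 3.58.1 (R 4.3.3) over its 15 arrays (lmFit, and eBayes with a trend, 5 group means, 10 residual degrees of freedom), on genes above the line's 40th percentile. Differences between lines used all 75 arrays, and p-values were adjusted over all genes tested. The scripts were tested on simulated data. Within groups, the correlation between arrays was 0.970 to 0.996, and 0 arrays were identical.

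Same-numbered arrays deviated together (every correlation over 0.1) in 12 of 20 comparisons, including both irradiation comparisons of TK6. No label ties the numbers to a shared culture or day. Alternatives were quantile normalization, no level filter, the mean of a gene's probe sets, the replicate block, a fit of the 6 compared arrays, the 0 h control and leaving out arrays. Leaving out all arrays of a number, and comparing number 1 with 2 and 3, were added after seeing the data.

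Named in the text are the members called, or otherwise the 2 with the widest difference; for levels, the 8 with the widest range and those below the limit everywhere; and called pathway genes, at most 4 per comparison. Other names stand as examples of their role or were chosen with values in view. IRF7, USP18, IFIT2, OAS2, OASL, MX2 and TRIM22 had no promoter entry.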

Additional observations from a re-analysis of the deposited data

Results flagged for a closer look

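The drift of CXCL10 in untreated cells differed between the 5 lines, by limma's moderated F over all genes, at 3 h (adjusted p = 0.00118) and at 6 h (adjusted p = 2.60e-07). TK6 drifted by 1.30 at 3 h and 1.75 at 6 h. In the other lines, where CXCL10 was below the level limit, the drift was between -0.41 and 0.03. CXCL10 entered the test through TK6 alone, so the test sets a measured drift against values below that limit.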

How the results depend on the processing

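With the replicate block limma called 4 members in TK6 at 3 h and 5 at 6 h after irradiation (8.46% and 13.1% of all genes). For TK6 drift the block gave 6 and 10 at 3 h and 6 h (6.99% and 12.9%). It gave 1 for the TK6 6 h effect minus the 3 h effect (1.03%), and 1 each in U2OS and BJ at 6 h after irradiation (1.07% and 0.518%). Against 0 h, where the block was no planned setting, it gave 8 and 14 in TK6 at 3 h and 6 h (18.8% and 24.2%). Against 0 h it also gave 2 in HepG2 (3.73%) and 1 each in G361 and U2OS (0.186% and 1.36%) at 6 h. It left the other member counts against time-matched controls, and for drift, as they were. In fits of the 6 compared arrays alone the counts were 4 for TK6 irradiation at 6 h, 0 and 3 for TK6 drift at 3 h and 6 h, and 1 for U2OS irradiation at 6 h. With the 0 h control they were 7 in TK6 and 2 in BJ at 6 h. After quantile normalization they were 3 for TK6 irradiation at 6 h, 1 for the TK6 6 h effect minus the 3 h effect, 2 for TK6 drift at 6 h, 1 for BJ irradiation at 6 h, and, for differences between lines at 6 h, 1 for irradiation and 2 for drift, the last chosen after seeing the data. Leaving out arrays gave 1 to 3 for TK6 irradiation at 3 h and at 6 h, 0 to 2 and 0 to 3 for TK6 drift at 3 h and 6 h, 0 to 2 and 0 to 1 for HepG2 irradiation at 3 h and 6 h, and 0 elsewhere. Shares of all genes are not given for fits of 6 arrays, quantile normalization or left-out arrays. These counts are therefore not read as results about the members. The counts for differences between lines include CXCL10, which entered those tests through TK6 alone. IRF7 in HepG2 at 3 h turned from 0.35 to -0.10 against the 0 h control. The causes were not tested. Over the settings run, the adjusted p of TRIM22 in TK6 lay between 2.92e-08 and 0.00256 at 3 h and between 1.14e-10 and 2.70e-04 at 6 h. It lay between 2.58e-04 and 0.298 for IFIT1 at 3 h and between 9.64e-04 and 0.405 for IFIH1 at 6 h.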
